A study of Mus musculus with 48 samples.

Results

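PyMT-N and AT3 are cultured mouse breast cancer cell lines, and their transcripts were compared here gene by gene in 6 RNA-seq libraries. The 3 libraries titled as PyMT-N cancer cells and the 3 titled as AT3 cancer cells were taken from the 48 libraries of the study. The count table spells the PyMT-N columns PyMTE, a spelling that no label pairs with PyMT-N, and the match was made by elimination among the 8 line names. The deposited count table lists 24054 genes, and 18348 of them had enough counts to be tested. PyMT-N cells were at passage 14 and AT3 cells at passage 15. Both lines are labelled C57BL/6 and received no treatment. They shared high-glucose DMEM with 10% serum, antibiotics and an antifungal agent, and were seeded in 6-well plates. No label says whether the 3 libraries of a line came from separate cultures, so the p-values measure the spread between these libraries, which may be technical. Each line is a single established line, so a difference between them cannot be told apart from the history of 2 individual cell stocks. The other 42 libraries are 6 further tumour lines and myeloid cells sorted from tumours. The lines were fitted together to estimate the spread and serve below to place the pair, and the sorted cells are not used.

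Polyoma middle T (PyMT) is a viral oncoprotein that activates Src and phosphoinositide 3-kinase signalling, and its expression in the mammary gland of mice gives rise to carcinomas. AT3 is known as a line from a PyMT-driven tumour on the C57BL/6 background, and the name PyMT-N refers to the same oncogene. Carcinoma cells in culture lie between an epithelial state, with E-cadherin junctions and keratin filaments, and a mesenchymal state, with vimentin and interstitial collagens. They also secrete factors that act on myeloid cells, among them granulocyte colony-stimulating factor on neutrophils and CCL2 on monocytes.

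Total counts per library ran from 4073453 to 6262942 in PyMT-N and from 3403334 to 6185535 in AT3. The ribosomal RNA precursor Rn45s took 7.14% to 9.17% of the counts in PyMT-N libraries and 5.23% to 14.9% in AT3 libraries. The 1459 odorant and vomeronasal receptor genes, which mammary cells are not known to use, took 620 to 857 CPM (counts scaled to a common library total) outside Rn45s in PyMT-N and 1487 to 2705 in AT3, so the libraries of the lines do not overlap in this background. A receptor gene had a median of 0.515 CPM in PyMT-N and 0.974 CPM in AT3, and 95% of these genes lay below 1.41 CPM in PyMT-N and 2.46 CPM in AT3. Levels near these values are at the background, and there a gene can be lower in PyMT-N with the background: the 252 receptor genes that were tested had a median log2 difference of -0.96. The part of the background in the calls on weakly expressed genes was not tested. Levels below are CPM scaled with TMM factors unless stated, and a log2 difference is PyMT-N minus AT3 with its standard error (SE).

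The lines differed in most genes. Of the 18348 genes tested, 5856 were higher in PyMT-N (31.9%) and 5354 were lower (29.2%) at a Benjamini-Hochberg adjusted p below 0.05 in the edgeR quasi-likelihood test. By more than 2-fold, tested against that size, 1618 genes were higher (8.82%) and 749 lower (4.08%). Among the 8109 genes with a mean of at least 16 CPM over the 6 libraries, 4804 were higher (59.2%) and 1169 lower (14.4%), and by more than 2-fold 1260 were higher (15.5%) and 241 lower (2.97%). The balance of directions depends on the scaling. The median log2 difference was -0.13 over all genes tested and 0.39 over the well-expressed genes. With factors computed from well-expressed genes alone the median difference moved by -0.37. Under those factors 3802 genes were higher (20.7%) and 9022 lower (49.2%), and among well-expressed genes 3123 were higher (38.5%) and 2744 lower (33.8%). The 3802 higher and all 5354 lower genes held their call under both scalings, and 36 genes were called in opposite directions. The shift is downward, with a median of -0.37 over all and over well-expressed genes. That lower genes kept their call was therefore set in advance and does not test them. Among the genes named by rule, Myc was the 1 whose direction turned. Shares of a gene list are read below against these percentages, and differences against the shift.

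**Figure D1:**
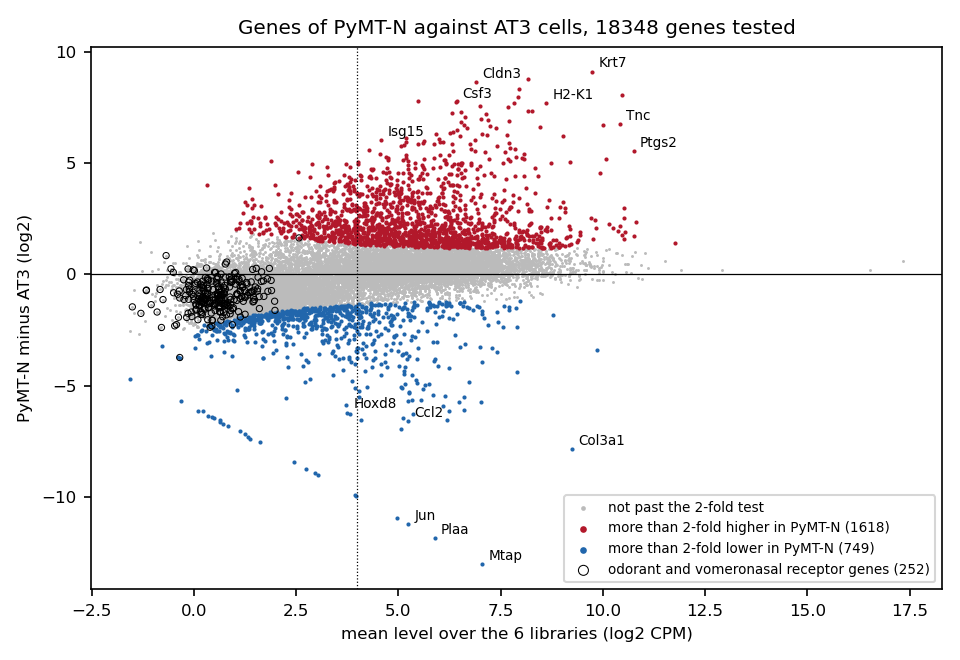
Log2 difference, PyMT-N minus AT3 (vertical axis), against the mean level over the 6 libraries in log2 CPM (horizontal axis) for 18348 genes. Red points are the 1618 genes more than 2-fold higher in PyMT-N, blue points the 749 lower, and open circles the 252 receptor genes tested. The dotted line marks a mean log2 CPM of 4, and the diagonal row of blue points at the lower left holds genes with 0 counts in PyMT-N.

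PyMT-N cells held the transcripts of an epithelial cell and AT3 cells little of them. Of the 28 junction and adhesion genes listed, 27 were higher in PyMT-N, all by more than 2-fold, and 0 were lower, with a median log2 difference of 3.92. Epcam, which encodes the epithelial cell adhesion molecule (ENSMUSG00000045394, chr17:87635979-87651129 in GRCm38), had 439.9, 459.8 and 464 CPM in the PyMT-N libraries, against 2.42, 2.31 and 1.82 CPM in the AT3 libraries. The libraries of the lines were far apart, and the difference was large (log2 difference 7.67 ± 0.15, adjusted p = 3.42e-61). In bulk RNA, fewer cells with a transcript and less RNA per cell cannot be told apart. Cdh1, which encodes E-cadherin, had 412, 478 and 479.5 CPM in the PyMT-N libraries, against 12.6, 13.5 and 8.19 CPM in the AT3 libraries (log2 difference 5.28 ± 0.12, adjusted p = 1.19e-55). Cldn3, the tight-junction protein claudin-3, had 217, 246 and 252 CPM in the PyMT-N libraries, against 0.661, 0.288 and 0.9102 CPM in the AT3 libraries, a level in AT3 within that of the receptor genes. Its neighbour on chromosome 5, Cldn4, differed by 7.26, and Spint2, an inhibitor of membrane serine proteases, by 7.55. PyMT-N was the highest of the 8 lines in 18 of the 27, and AT3 was the lowest in 4.

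Of the 6 luminal and simple keratins, 4 were higher in PyMT-N and 1 lower (2 under factors from well-expressed genes). Krt7 (ENSMUSG00000023039, chr15:101411043-101430313), a keratin of simple glandular epithelia, had 1709, 1711 and 1713 CPM in the PyMT-N libraries, against 3.53, 2.74 and 3.19 CPM in the AT3 libraries (log2 difference 9.1 ± 0.15, adjusted p = 1.09e-66). The PyMT-N libraries had an SD of 1.65 CPM around 1711 CPM, with 20641 counts in sum. An SD from 3 libraries is itself imprecise, and this one is no measure of how precisely the level is known. Krt8 averaged 1032 ± 49.3 CPM in PyMT-N and 14.2 ± 0.956 CPM in AT3 (SD, n = 3 each) and its partner Krt18 1139 ± 53.2 CPM in PyMT-N and 34.2 ± 2.04 CPM in AT3, and neither was at the background in AT3. Krt19 differed by 6.28. Krt23, the 1 lower member, was near the receptor background in both lines and lost its call without replicate 2 of either line. Of 7 basal and stratified keratins, Krt14, Krt17 and Krt80 were higher in PyMT-N by 1.34, 2.04 and 3.03, and Krt6a and Krt6b, near-identical copies whose reads may have been split, were lower, with log2 differences of -1.25 and -2.08 at low counts, Krt6a not without replicate 1 of either line. Krt14 averaged 9.35 ± 2.56 CPM in PyMT-N and 3.85 ± 1.47 CPM in AT3, so the basal keratin was low in both lines.

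Regulators of the epithelial state were mostly higher too, 8 of 12, with 1 lower (2 without PyMT-N replicate 1 or AT3 replicate 3, or under factors from well-expressed genes). Esrp1, a splicing factor of epithelial cells, had 149, 165 and 161 CPM in the PyMT-N libraries, against 4.63, 5.91 and 4.55 CPM in the AT3 libraries. The groups do not overlap (log2 difference 4.93 ± 0.14, adjusted p = 1.32e-49). Grhl2, a transcription factor that activates junction genes, differed by 3.04, Elf3 by 2.86, Klf5 by 2.74 and Esrp2 by 2.32. The 1 lower member was Trp63, a factor of basal epithelium, with 4.86 ± 0.373 CPM in PyMT-N and 9.81 ± 1.23 CPM in AT3 (log2 difference -1.02). That difference is near the receptor-gene median of -0.96. Per kb of exon Trp63 had 0.579 CPM in PyMT-N and 1.17 CPM in AT3. By that measure 95% of receptor genes lay below 0.572 and 1.04 CPM, so Trp63 was close to the background.

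Genes of the luminal lineage and the ErbB pathway were mostly higher as well, 15 of 20, with 3 lower and 5 under factors from well-expressed genes (the 3 being Pgr, Prlr and Erbb4, named because they complete the count, each below a mean of 16 CPM over the 6 libraries). Gata3, the master regulator of the luminal lineage, had 53.7, 46.8 and 50.1 CPM in the PyMT-N libraries, against 3.75, 2.88 and 2.28 CPM in the AT3 libraries, and the groups do not overlap (log2 difference 4.08 ± 0.18, adjusted p = 2.17e-36). Ligands of the epidermal growth factor receptor were high together. Tgfa differed by 5.01, Hbegf by 4.27 and Areg by 4.01. The neuregulin gene Nrg1, whose product binds other ErbB receptors, differed by 2.96. Among milk and secretory genes 5 of 11 were higher and 1 lower (2 under factors from well-expressed genes). Wfdc2, a secreted protease inhibitor of glandular epithelia, had 605, 557 and 552 CPM in the PyMT-N libraries, against 1.54, 1.15 and 1.14 CPM in the AT3 libraries, an increase second to Krt7 among the genes named by rule (log2 difference 8.79 ± 0.16, adjusted p = 1.05e-63). Lcn2, the iron-carrier binding protein lipocalin-2, differed by 5.21 and Cd24a, a surface protein of luminal cells, by 6.97. Neither Cd24a nor Gata3 followed Epcam throughout the 8 lines. Cd24a averaged 759, 478 and 242 CPM in 2208L, 4T1 and T11, where Epcam averaged 245, 179 and 2.67 CPM. Gata3 averaged 3.81 CPM in 2208L, 60.5 CPM in 4T1 and 33.8 CPM in 67NR, where Epcam averaged 2.60 CPM. Cp, which encodes ceruloplasmin, was lower by a log2 difference of -1.5.

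The E-box CAGGTG is a site through which ZEB, SNAIL and TWIST factors act on epithelial promoters. The promoters of Epcam and Krt7 are shown as named members with a match. In the 250 bases before the RefSeq start, CAGGTG (or CACCTG on the other strand) was found in 10 of the 18 junction genes that matched the promoter table (55.6%) and in 4 of 5 simple keratins (80%), against 19.4% of all 27025 genes. Capitals mark the matches, 5′ to 3′ on the gene's strand in GRCm38.p6. The Epcam promoter is chr17:87635729-87635978 on the plus strand, with matches starting 187 and 19 bases before the start. That of Krt7 is chr15:101412153-101412402 on the plus strand, with a match 44 bases before the start. The Krt7 window lies inside the gene span given above, which is from GENCODE and starts at 101411043.
Epcam: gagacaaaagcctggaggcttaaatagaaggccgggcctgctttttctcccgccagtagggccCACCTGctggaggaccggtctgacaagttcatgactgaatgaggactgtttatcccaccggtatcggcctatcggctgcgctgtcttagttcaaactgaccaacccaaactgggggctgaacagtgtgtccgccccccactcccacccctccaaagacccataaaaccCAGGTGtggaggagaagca
Krt7: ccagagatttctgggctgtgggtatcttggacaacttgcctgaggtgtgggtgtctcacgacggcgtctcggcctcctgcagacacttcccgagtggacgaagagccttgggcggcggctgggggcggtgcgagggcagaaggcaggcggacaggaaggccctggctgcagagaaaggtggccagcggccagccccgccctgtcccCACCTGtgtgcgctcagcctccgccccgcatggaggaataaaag
Cldn3, with a log2 difference of 8.63, matched the promoter table and had no E-box in its window. The lists were chosen with earlier results of these data known, so the shares describe the lists. The matches describe these letters and do not show that a factor binds there.

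The factors themselves did not move as 1 group. Of 10 mesenchymal transcription factors tested, 7 were lower in PyMT-N and 3 higher. Zeb1, a repressor of E-cadherin, had 8.08, 6.09 and 6.01 CPM in the PyMT-N libraries, against 49.2, 59.1 and 68.7 CPM in the AT3 libraries (log2 difference -3.1 ± 0.15, adjusted p = 1.27e-32). Twist2, a helix-loop-helix factor of mesenchyme, had 0.404, 0.641 and 0 CPM in the PyMT-N libraries, against 20.5, 29.1 and 33.2 CPM in the AT3 libraries, which puts PyMT-N at the receptor background. Snai2 was lower by a log2 difference of -1.72. Against them, Snai1, also a repressor of E-cadherin, was higher in PyMT-N with 18.7 ± 3.13 CPM in PyMT-N and 5.63 ± 1.47 CPM in AT3 (log2 difference 1.71 ± 0.20, adjusted p = 1.7e-12), and Foxc2 was higher with 15.4 ± 1.11 CPM in PyMT-N and 1.37 ± 0.926 CPM in AT3 (log2 difference 3.5 ± 0.30, adjusted p = 7.13e-18). The other higher member, Twist1, at 0.63, no longer was under factors from well-expressed genes.

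Mesenchymal structural genes and the matrix split by member, with large differences both ways. Of 20 structural genes 10 were lower and 5 higher in PyMT-N, and of 22 collagens 12 were lower and 7 higher, or 15 and 4 under factors from well-expressed genes. Vim, the intermediate filament of mesenchymal cells, had 153, 162 and 166 CPM in the PyMT-N libraries, against 1436, 1749 and 1920.0 CPM in the AT3 libraries. The PyMT-N libraries were low and close together (log2 difference -3.41 ± 0.10, adjusted p = 1.08e-49). Col3a1, the chain of the interstitial collagen III, had 7.27, 2.56 and 4.76 CPM in the PyMT-N libraries, against 1113, 1213 and 1296 CPM in the AT3 libraries (log2 difference -7.85 ± 0.14, adjusted p = 2.15e-63), and the groups are far apart. Dcn, the collagen-binding proteoglycan decorin, had 2.02, 1.28 and 1.25 CPM in the PyMT-N libraries, against 67.5, 81.6 and 88.97 CPM in the AT3 libraries. S100a4, a calcium-binding protein of motile cells, differed by -4.39, Col6a1 by -4.98 and Col6a2 by -3.31. PyMT-N was the lowest of the 8 lines for Vim, Col3a1 and Dcn, and AT3 was the highest for Col3a1 and Dcn.

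Other matrix genes ran the opposite way. Fn1, which encodes fibronectin and is often counted as mesenchymal, had 2152, 2630.2 and 2655 CPM in the PyMT-N libraries, against 393, 409.6 and 483 CPM in the AT3 libraries (log2 difference 2.53 ± 0.09, adjusted p = 8.1e-41). Tnc, the matrix glycoprotein tenascin-C, had 2320.3, 2976 and 2843 CPM in the PyMT-N libraries, against 27.3, 24.5 and 23.2 CPM in the AT3 libraries (log2 difference 6.76 ± 0.12, adjusted p = 1.85e-63). All PyMT-N libraries were above all AT3 libraries for both. Fbln2, the matrix protein fibulin-2, had 2587, 3043 and 2845 CPM in the PyMT-N libraries, against 12.3, 10.7 and 9.33 CPM in the AT3 libraries, and AT3 was the lowest of the 8 lines while PyMT-N was the highest. Col7a1, the anchoring-fibril collagen of epithelial basement membranes, differed by 3.79, Col8a1 by 3.44 and Pdpn, the membrane glycoprotein podoplanin, by 6.37. Cdh2 and Axl, named as the remaining higher members, differed by 3.12 and 2.06. The thrombospondin genes parted: Thbs1 averaged 2092 ± 290.1 CPM in PyMT-N and 57.5 ± 6.06 CPM in AT3 and Thbs2 averaged 4.65 ± 0.736 CPM in PyMT-N and 254 ± 21.3 CPM in AT3.

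Among 23 matrix proteases and inhibitors 14 were higher in PyMT-N and 5 lower (3 lower without replicate 1 of either line), or 13 and 9 under factors from well-expressed genes. The gelatinase gene Mmp9 had 127, 152 and 161 CPM in the PyMT-N libraries, against 3.31, 4.18 and 2.96 CPM in the AT3 libraries, the collagenase gene Mmp13 differed by 5.14, and Plau, the urokinase plasminogen activator, by 4.03. The serine protease inhibitors Serpine2 and Serpinb2, which block plasminogen activators, were high in the same cells, by 6.01 and 7.31. Klk8, a kallikrein-related protease and 1 of the 15 largest increases among well-expressed genes whose libraries do not overlap, had 178, 178 and 163 CPM in the PyMT-N libraries, against 0.882, 1.01 and 0.228 CPM in the AT3 libraries. Of 14 integrin subunits 8 were higher and 5 lower. Of the 10 well-expressed subunits 8 were higher, against 59.2% of all well-expressed genes. Itga3 and Itga6, the laminin receptor subunits, were higher by 4.57 and 1.99, and the collagen receptor subunit Itga2 by 4.98. Itgb7, a subunit known mainly from leukocytes, had 2.63, 1.602 and 4.01 CPM in the PyMT-N libraries, against 169, 188 and 217 CPM in the AT3 libraries, the highest level of the 8 lines in AT3 and the lowest in PyMT-N.

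**Figure D2:**
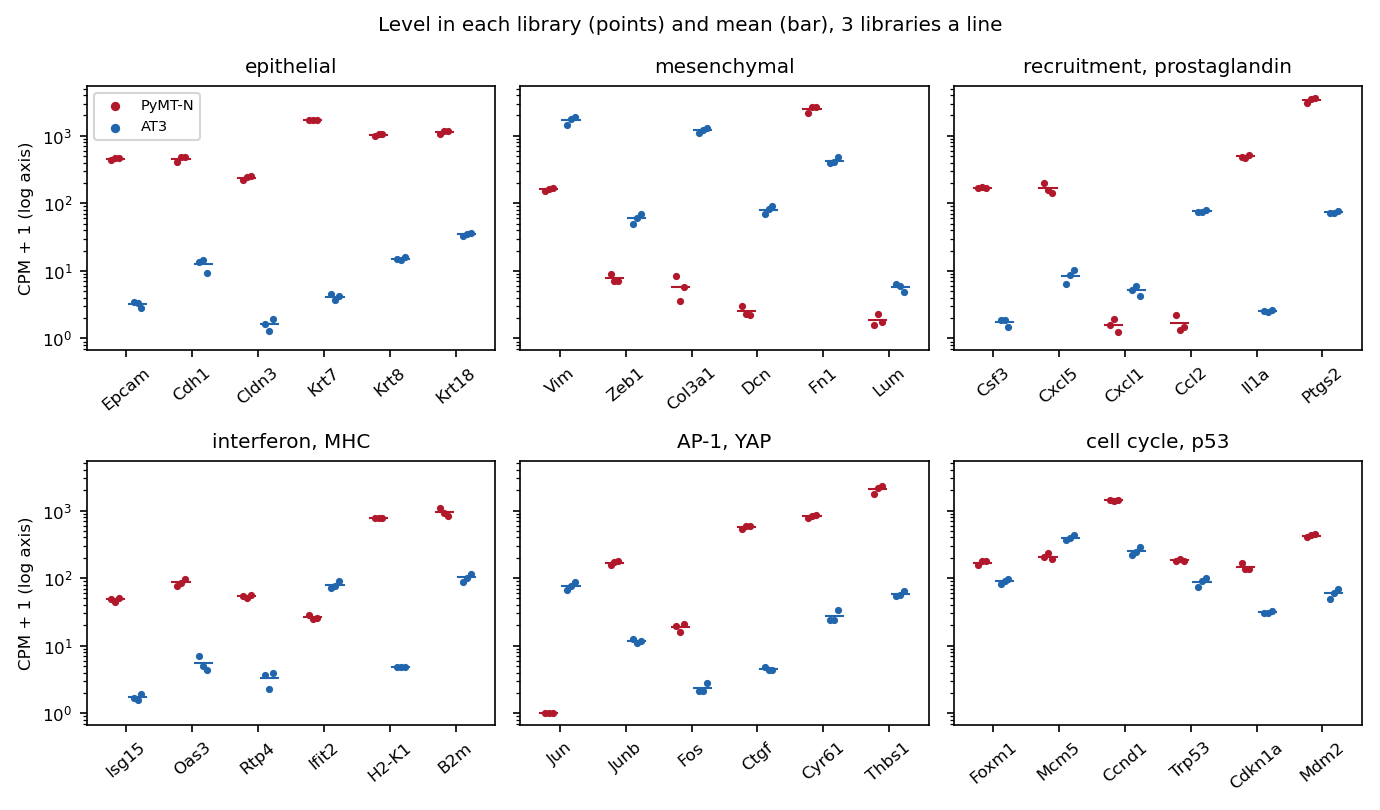
CPM + 1 on a log axis for 36 genes in 6 groups. Each point is 1 library, PyMT-N in red and AT3 in blue, and each bar the mean of 3. For every gene shown the PyMT-N and AT3 libraries lie apart, and Jun has 0 counts in all 3 PyMT-N libraries.

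Ligands listed as drawing neutrophils, directly or not, were higher in PyMT-N in 12 of 19 genes tested and lower in 3 (1 with the pair fitted alone). Their median log2 difference was 2.31, and PyMT-N was the highest of the 8 lines in 10 of the 12. Csf3, the granulocyte colony-stimulating factor that drives neutrophil production (ENSMUSG00000038067, chr11:98701263-98703629), had 169, 171 and 166 CPM in the PyMT-N libraries, against 0.882, 0.865 and 0.455 CPM in the AT3 libraries (log2 difference 7.74 ± 0.20, adjusted p = 1.71e-52). AT3 was at the receptor background and the lowest of the 8 lines. Il1a, the membrane-bound and released cytokine interleukin-1 alpha, had 491, 473 and 518 CPM in the PyMT-N libraries, against 1.54, 1.44 and 1.59 CPM in the AT3 libraries (log2 difference 8.32 ± 0.16, adjusted p = 6.35e-62), while the other lines averaged between 1.18 and 7.14 CPM. Csf2, the granulocyte-macrophage factor, differed by 3.97, Lif by 5.75, the interleukin-23 subunit Il23a by 6.35 and S100a8, a subunit of calprotectin, by 5.02.

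The chemokines that bind the neutrophil receptor CXCR2 did not move together. Cxcl5 had 196, 157 and 144 CPM in the PyMT-N libraries, against 5.29, 7.78 and 9.33 CPM in the AT3 libraries (log2 difference 4.46 ± 0.15, adjusted p = 4.67e-45). Cxcl1, for the same receptor, had 0.606, 0.961 and 0.251 CPM in the PyMT-N libraries, against 4.19, 5.04 and 3.19 CPM in the AT3 libraries (log2 difference -2.81 ± 0.44, adjusted p = 6.27e-08), a low level in both lines. The remaining lower members were Cxcl15, at -1.17, and S100a9, at -2.37, named because they complete the 3. S100a9 encodes the partner of S100a8 and averaged 0.285 ± 0.304 CPM in PyMT-N and 1.87 ± 0.483 CPM in AT3. These levels are within those of the receptor genes in both lines. The opposite calls of the calprotectin subunits thus rest on a gene at the background.

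Of 18 ligands listed as drawing monocytes, directly or not, 12 were higher and 2 lower. The 2 were neighbours on chromosome 11 that encode ligands of the monocyte receptor CCR2. Ccl2 had 1.21, 0.3204 and 0.501 CPM in the PyMT-N libraries, against 74.3, 73.5 and 77.6 CPM in the AT3 libraries (log2 difference -6.59 ± 0.24, adjusted p = 7.37e-42), with no overlap and PyMT-N the lowest of the 8 lines. Ccl7 had 0.385 ± 0.376 CPM in PyMT-N and 6.04 ± 0.901 CPM in AT3. Cxcl16, a transmembrane chemokine, had 286, 277 and 282 CPM in the PyMT-N libraries, against 3.75, 4.04 and 2.96 CPM in the AT3 libraries (log2 difference 6.26 ± 0.14, adjusted p = 7.65e-57). Pgf, the placental growth factor, differed by 4.91, Cxcl10 by 2.62, and Csf1, the main growth factor of macrophages, by 0.71 from 109 ± 2.91 CPM in PyMT-N and 66.7 ± 9.96 CPM in AT3. Transcripts of ligands were measured and not the proteins, and no myeloid cell was part of these cultures.

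The prostaglandin genes split, 6 of 21 higher and 8 lower. Ptgs2 (ENSMUSG00000032487, chr1:150100031-150108227), the inducible cyclooxygenase, had 3054, 3476 and 3619.6 CPM in the PyMT-N libraries, against 70.8, 70.9 and 75.3 CPM in the AT3 libraries (log2 difference 5.55 ± 0.10, adjusted p = 3.69e-63), and its paralog Ptgs1, named beside it as the constitutive enzyme, had 56.1, 60.2 and 63.6 CPM in the PyMT-N libraries, against 173, 208 and 228 CPM in the AT3 libraries (log2 difference -1.76 ± 0.10, adjusted p = 5.48e-29). Slco2a1, which encodes a carrier that takes prostaglandins up, and Abcc4, which encodes an exporter, were higher by 5.66 and 2.26. Pla2g7, a secreted phospholipase, was lower by a log2 difference of -3.17 and Alox5ap, of the leukotriene branch, by -2.34 at low counts.

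Interferon-response genes were high in PyMT-N almost without exception. Of 35 tested, 33 were higher, 29 of them by more than 2-fold, and 1 was lower, with a median log2 difference of 2.98. The counts were 31 and 1 under factors from well-expressed genes. PyMT-N was the highest of the 8 lines in 26 of the 33 and AT3 the lowest in 13. Isg15, a ubiquitin-like modifier induced by interferon, had 48.7, 43.3 and 49.6 CPM in the PyMT-N libraries, against 0.661, 0.576 and 0.9102 CPM in the AT3 libraries (log2 difference 6.03 ± 0.25, adjusted p = 3.19e-37). Oas3, a sensor of double-stranded RNA, had 75.7, 83.6 and 96.95 CPM in the PyMT-N libraries, against 5.95, 4.04 and 3.41 CPM in the AT3 libraries, and its relatives Oasl2 and Oas1a differed by 4.34 and 4.34. Oas1a has close copies, and its reads may be shared with them. Rtp4, a chaperone of receptors that interferon induces, differed by 4.59. The exception, Ifit2, a binder of foreign RNA named as the 1 lower member, had 27.7, 24.03 and 25.1 CPM in the PyMT-N libraries, against 70.8, 74.6 and 88.5 CPM in the AT3 libraries (log2 difference -1.59 ± 0.12, adjusted p = 4.42e-20). Sums over the listed genes ran from 1980 to 2178 CPM in PyMT-N and from 411 to 434 CPM in AT3.

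The interferon-stimulated response element, which the ISGF3 complex and interferon regulatory factors bind, was searched for as GAAA followed after any 2 bases by another GAAA, on both strands of the same 250 bases. It was present in 13 of the 26 interferon-list genes that matched the promoter table (50%) and in 2 of 18 genes of class I presentation (11.1%), against 3.46% of all genes. The list was drawn partly from known interferon targets, so this share describes the list. Isg15 and Oas3 are shown as named members with a match. The Isg15 promoter is chr4:156200819-156201068 on the minus strand, with 3 overlapping matches that start 78, 72 and 66 bases before the start, and that of Oas3 is chr5:120777660-120777909 on the minus strand, with a match 75 bases before it. Capitals mark the matches.
Isg15: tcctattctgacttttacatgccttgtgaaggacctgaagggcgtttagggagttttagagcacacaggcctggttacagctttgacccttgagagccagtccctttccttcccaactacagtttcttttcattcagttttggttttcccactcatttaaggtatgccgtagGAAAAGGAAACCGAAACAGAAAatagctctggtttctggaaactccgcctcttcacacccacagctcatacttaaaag
Oas3: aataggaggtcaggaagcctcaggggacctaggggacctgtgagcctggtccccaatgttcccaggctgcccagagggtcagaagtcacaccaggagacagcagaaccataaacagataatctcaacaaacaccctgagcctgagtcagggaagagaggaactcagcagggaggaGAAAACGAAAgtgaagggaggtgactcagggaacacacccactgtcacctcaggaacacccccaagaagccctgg
The runs in capitals of Isg15 overlap and form 1 stretch.

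Antigen presentation by MHC class I was also higher, in 17 of 20 genes tested, with 0 lower and a median of 1.42. Under factors from well-expressed genes 17 were higher and 2 lower. H2-K1, a classical class I heavy chain, had 782, 775 and 786 CPM in the PyMT-N libraries, against 3.75, 3.75 and 3.87 CPM in the AT3 libraries (log2 difference 7.68 ± 0.13, adjusted p = 1.25e-65). AT3 was the lowest of the 8 lines, and E0771 and PyMT-M averaged 102 and 58.7 CPM. The BALB/c lines 2208L, 4T1, 67NR and T11 averaged from 48.1 to 238 CPM, with reads aligned to the same mm10 genome. The effect of strain on the counts of this gene was not tested. B2m, the light chain shared by all class I molecules (ENSMUSG00000060802, chr2:122147686-122153083), had 1087, 904 and 834 CPM in the PyMT-N libraries, against 87.7, 100.3 and 115 CPM in the AT3 libraries (log2 difference 3.22 ± 0.12, adjusted p = 1.5e-40). H2-D1 differed by 3.22, H2-T23 by 3.77 and Psmb8, an immunoproteasome subunit, by 4.43. Class I heavy chains are near-identical over long stretches and the handling of shared reads is not given, so the split among them is uncertain. Checkpoint and costimulation ligands did not follow as a list, with 6 of 18 higher and 2 lower, or 5 and 9 under the other factors. The 2 lower, Pdcd1lg2 and Tnfsf4, became 1 without PyMT-N replicate 2 or AT3 replicate 1. Among the higher, Nt5e, the ectonucleotidase that makes adenosine, differed by 4.51, Lgals9 by 3.59 and Pvr, a ligand of TIGIT and CD226, by 3.47. The ligand genes Ulbp1 and Tnfsf9 differed by 2.2 and 1.75. Cd274, which encodes PD-L1, is named for its role: it did not pass the test, with 7.74 ± 0.907 CPM in PyMT-N and 8.72 ± 0.822 CPM in AT3 (log2 difference -0.16 ± 0.22, adjusted p = 0.537), and was called lower under factors from well-expressed genes.

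**Figure D3:**
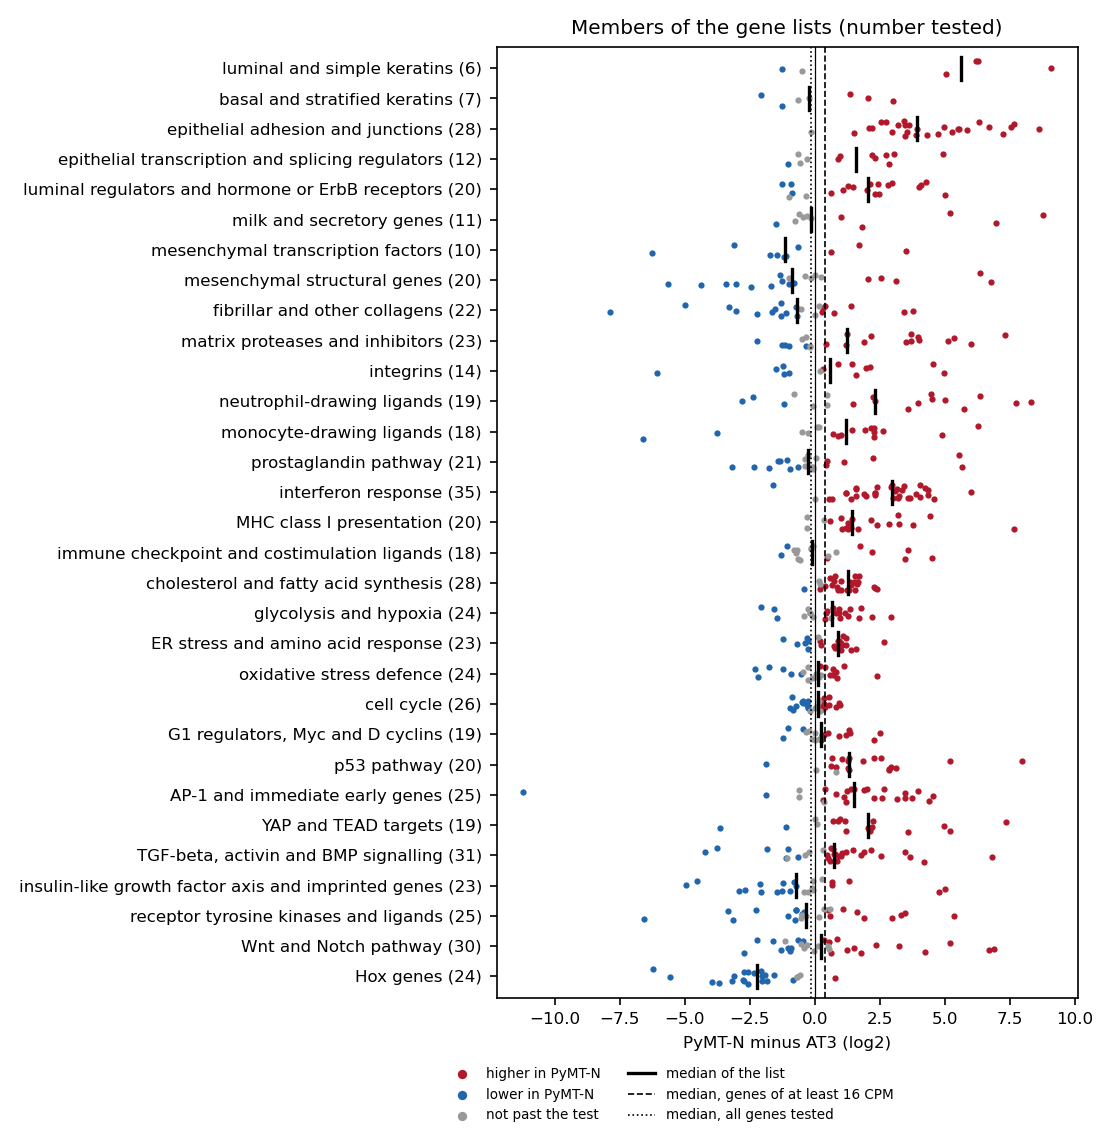
Log2 difference, PyMT-N minus AT3, of each tested member of 31 gene lists, with the number tested in brackets. Red points were higher in PyMT-N, blue points lower and grey points did not pass the test. Black bars are list medians, and the dashed and dotted lines mark the medians of well-expressed genes (0.39) and of all genes tested (-0.13). Junction, simple keratin and interferon genes lie to the right, and Hox genes to the left.

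The p53 and AP-1 pathways were on the higher side in PyMT-N. Of 20 p53 pathway genes 17 were higher and 1, Sesn1, lower at -1.88, with a median of 1.32. Under factors from well-expressed genes 16 were higher and 2 lower. PyMT-N was the highest of the 8 lines in 13 of the 17. Trp53 itself had 178, 190.0 and 178 CPM in the PyMT-N libraries, against 73.8, 88.8 and 98.98 CPM in the AT3 libraries, a difference (log2 difference 1.06 ± 0.10, adjusted p = 1.17e-16) that was 0.69 under factors from well-expressed genes. Mdm2, its target and its ubiquitin ligase, had 402, 427 and 445 CPM in the PyMT-N libraries, against 48.5, 59.8 and 68.9 CPM in the AT3 libraries (log2 difference 2.84 ± 0.10, adjusted p = 2.12e-42), and Cdkn1a, the p21 inhibitor of cyclin-dependent kinases, averaged 147 ± 18.7 CPM in PyMT-N and 30.2 ± 1.66 CPM in AT3. Perp, a desmosomal membrane protein and p53 target, had 470.0, 489 and 492 CPM in the PyMT-N libraries, against 1.76, 2.74 and 0.683 CPM in the AT3 libraries (log2 difference 7.98 ± 0.15, adjusted p = 6.35e-62). Across the 8 lines Perp, like Epcam, was high in PyMT-N, 2208L and 4T1, at 483, 417 and 191 CPM. Plk2 differed by 5.2, Trp53inp1 by 3.12 and Pmaip1, the death effector Noxa, by 2.94.

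Of 25 AP-1 and immediate early genes 20 were higher and 2 lower, with a median of 1.51. Junb had 153, 172 and 176 CPM in the PyMT-N libraries, against 11.7, 9.799 and 10.7 CPM in the AT3 libraries (log2 difference 3.97 ± 0.12, adjusted p = 1.19e-47). Fos averaged 17.8 ± 2.46 CPM in PyMT-N and 1.36 ± 0.401 CPM in AT3. Egr1, a zinc-finger factor, differed by 4.39, Ier3 by 4.55 and Atf3, which is also a stress factor, by 2.68. The 2 lower members were Egr3, at -1.88, and Jun, the central AP-1 subunit, which had 0 counts in all 3 PyMT-N libraries and 65.03, 74.6 and 87.6 CPM in AT3. The line without Jun counts was the one with more Junb and Fos.

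YAP and TAZ are coactivators that TEAD factors carry to promoters, and 15 of 19 genes of this pathway were higher in PyMT-N and 2 lower, with a median of 2.06. Under factors from well-expressed genes 15 were higher and 4 lower. Ctgf, a matricellular protein and target, had 529, 596 and 586 CPM in the PyMT-N libraries, against 3.75, 3.31 and 3.41 CPM in the AT3 libraries (log2 difference 7.35 ± 0.14, adjusted p = 1.78e-62). Cyr61, its relative, had 774, 824 and 862 CPM in the PyMT-N libraries, against 22.9, 23.3 and 32.5 CPM in the AT3 libraries (log2 difference 4.98 ± 0.11, adjusted p = 1.09e-57). Ankrd1 averaged 411 ± 13.4 CPM in PyMT-N and 34.3 ± 4.09 CPM in AT3 and differed by 3.58. AT3 was the lowest of the 8 lines for Ctgf and Cyr61. The lower members were Fstl1, at -3.63, and Tgfb2, at -1.12. The core TEAD motif GGAATG (or CATTCC) lay in the 250 bases before the start of 9 of 15 matched genes of the list (60%), against 14.4% of all genes. The promoters of Cyr61 (chr3:145649986-145650235, minus strand, 1 match 103 bases before the start) and Ankrd1 (chr19:36119845-36120094, minus strand, matches 210 and 123 bases before it) are shown as targets with a match, in capitals. Cyr61 stands in RefSeq under the symbol Ccn1.
Cyr61: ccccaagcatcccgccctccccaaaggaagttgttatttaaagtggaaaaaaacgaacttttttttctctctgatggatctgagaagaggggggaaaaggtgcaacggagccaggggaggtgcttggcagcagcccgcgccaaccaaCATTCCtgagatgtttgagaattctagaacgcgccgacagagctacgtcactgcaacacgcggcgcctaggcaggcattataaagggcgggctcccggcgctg
Ankrd1: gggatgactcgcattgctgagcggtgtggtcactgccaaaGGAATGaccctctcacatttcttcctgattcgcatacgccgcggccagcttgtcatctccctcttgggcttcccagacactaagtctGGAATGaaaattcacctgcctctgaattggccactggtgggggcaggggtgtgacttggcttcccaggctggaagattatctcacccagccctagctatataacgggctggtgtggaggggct
The list was drawn from known targets and their regulators, so the share describes the list.

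Of 31 genes of TGF-beta, activin and BMP signalling 21 were higher and 6 lower, or 15 and 8 under factors from well-expressed genes. Inhba, the activin A subunit, had 181, 169 and 197 CPM in the PyMT-N libraries, against 1.32, 1.01 and 2.73 CPM in the AT3 libraries (log2 difference 6.82 ± 0.17, adjusted p = 2.63e-53), and Fst, the secreted antagonist of activin, differed by 4.22. Smad7, an inhibitor induced by the pathway, differed by 3.66. Tgfbr3, the coreceptor betaglycan, had 7.88, 6.41 and 8.27 CPM in the PyMT-N libraries, against 115, 154 and 159 CPM in the AT3 libraries (log2 difference -4.22 ± 0.14, adjusted p = 2.45e-43), and Id2, a target of BMP signals, differed by -3.74.

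In the Wnt and Notch list 13 of 30 genes were higher and 9 lower (4 lower without PyMT-N replicate 1 and 5 without AT3 replicate 2), and 3 Wnt ligands had the largest differences. Wnt7a had 389.6, 432 and 423 CPM in the PyMT-N libraries, against 4.41, 2.59 and 3.87 CPM in the AT3 libraries (log2 difference 6.88 ± 0.14, adjusted p = 1.83e-60), Wnt10a had 173, 203 and 201 CPM in the PyMT-N libraries, against 2.87, 0.865 and 2.28 CPM in the AT3 libraries (log2 difference 6.68 ± 0.17, adjusted p = 1.13e-52), and Wnt7b averaged 522 ± 17.1 CPM in PyMT-N and 14.3 ± 1.02 CPM in AT3. PyMT-N was the highest of the 8 lines for Wnt7a and Wnt10a. The Notch ligand gene Jag2 and the Notch target Hes1 differed by 3.26 and 4.23. Of 25 receptor tyrosine kinases and ligands 9 were higher and 10 lower. The platelet-derived growth factor genes Pdgfb and Pdgfa were higher by 5.35 and 3.45, and the ephrin receptor Epha2 by 3.34. Ddr2, a receptor for fibrillar collagen, was lower by a log2 difference of -3.33. Ptn, the secreted growth factor pleiotrophin, had 1.21, 0.961 and 2.25 CPM in the PyMT-N libraries, against 128, 137 and 165 CPM in the AT3 libraries, and among the 8 lines T11 alone, at 125 CPM, was near AT3. Met, the receptor of hepatocyte growth factor, differed little, with 345 ± 10.9 CPM in PyMT-N and 232 ± 13.3 CPM in AT3 and a log2 difference of 0.57.

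Cholesterol and fatty acid synthesis was higher in 25 of 28 genes and lower in 1, Scd2 at -0.43, with a median of 1.28 (22 and 3 under factors from well-expressed genes). The sterol pathway enzymes Ebp, Dhcr7, Msmo1 and Hsd17b7 differed by 2.39, 2.27, 1.71 and 1.68. Ebp, a sterol isomerase, had 58.6, 46.5 and 52.4 CPM in the PyMT-N libraries, against 8.82, 9.08 and 12.7 CPM in the AT3 libraries, without overlap. AT3 was the lowest of the 8 lines in 10 of the 25. Glycolysis and hypoxia genes were mixed, 15 of 24 higher and 3 lower (5 lower without AT3 replicate 1, with the pair fitted alone or with Rn45s and Lars2 left out), or 13 and 8 under factors from well-expressed genes. Aldoa and Hk1, enzymes of glycolysis, differed by 1.76 and 2.21, and Egln3, a prolyl hydroxylase that hypoxia induces, by -2.05. The hypoxia-induced carbonic anhydrase gene Car9 and Ddit4 differed by 2.93 and 1.71. Of 23 genes of the ER stress and amino acid response 16 were higher and 6 lower, and without AT3 replicate 3 the lower were 2. Among well-expressed members 13 of 20 were higher in this list and 13 of 19 in the glycolysis and hypoxia list. Both shares are near the 59.2% of all well-expressed genes. Edem1, Pdia4 and Trib3 differed by 1.6, 1.2 and 1.41, and Psat1, an enzyme of serine synthesis, by -1.21. Among 24 oxidative defence genes, 10 were higher and 6 lower, or 8 and 12 under the other factors. Of the 16 well-expressed members 10 were higher, also near that share. Hmox1, which degrades haem, differed by 2.38, the glutathione transferases Gstm1 and Gsta4 by -2.3 and -2.18, Aldh1a1 by -1.75, and the quinone reductase Nqo1 by -1.21.

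Proliferation genes differed little. Of 26 cell cycle genes 11 were higher and 10 lower, 5 and 16 under factors from well-expressed genes, and 0 passed the 2-fold test in either direction. The replication licensing genes Mcm3, Mcm5 and Mcm6 were lower by log2 differences of -0.83, -0.93 and -0.87, and Ccne1 and Foxm1 higher by 0.97 and 0.92. Ccnd1, the cyclin that starts the G1 phase, had 1423, 1396 and 1432 CPM in the PyMT-N libraries, against 218, 241 and 283 CPM in the AT3 libraries (log2 difference 2.52 ± 0.09, adjusted p = 3.87e-42), with AT3 the lowest of the 8 lines. Among the other G1 regulators Cdkn1b, which encodes p27, differed by 1.36 and Mxd1 by 1.33, and Mycn by -1.23 near the background, a call lost in DESeq2 and without 4 of the 6 libraries in turn. Myc had 154, 151 and 166 CPM in the PyMT-N libraries, against 131, 142 and 151 CPM in the AT3 libraries. The groups overlap. The log2 difference of 0.15 did not pass (adjusted p = 0.126), and with factors from well-expressed genes it was -0.21.

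Hox genes, the positional regulators, were lower in PyMT-N in 20 of 24 tested and higher in 1 (0 without PyMT-N replicate 2 or under factors from well-expressed genes), with a median of -2.21. No Hox gene averaged 16 CPM over the 6 libraries. Hoxd8 had 0.202, 0.641 and 0.251 CPM in the PyMT-N libraries, against 20.1, 29.8 and 30.04 CPM in the AT3 libraries (log2 difference -6.21 ± 0.33, adjusted p = 6.54e-30), and Hoxd9 had 0.202, 0.3204 and 0 CPM in the PyMT-N libraries, against 9.26, 8.93 and 10.01 CPM in the AT3 libraries. Hoxa5, Hoxa7 and Hoxc10 differed by -3.94, -3.19 and -3.67. In PyMT-N these 5 genes lay at the level of the receptor genes, and in AT3 above it. The list's median is further from 0 than the -0.96 of the receptor genes. Neighbouring genes were lower together. Hoxd10, Hoxd9, Hoxd8, Hoxd3 and Hoxd4 form a run of 5 tested genes on chromosome 2, and Hoxa2 to Hoxa7 a run of 6 on chromosome 6, each more than 2-fold lower. Strand was not given for the counting, so reads of antisense transcripts within these clusters cannot be told apart. PyMT-N was the lowest of the 8 lines in 12 of the 20.

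Imprinted and developmental genes differed in both directions. Of 23 genes of the insulin-like growth factor axis and imprinted loci 12 were lower and 5 higher. Peg10, a retrotransposon-derived imprinted gene, had 3.03, 1.92 and 1.503 CPM in the PyMT-N libraries, against 63.04, 72.1 and 73.7 CPM in the AT3 libraries (log2 difference -4.94 ± 0.20, adjusted p = 9.69e-39), and its neighbour on chromosome 6, Sgce, differed by -2.92. Peg3, an imprinted zinc-finger gene on chromosome 7, had 93.7, 123 and 117 CPM in the PyMT-N libraries, against 2.42, 4.76 and 4.55 CPM in the AT3 libraries (log2 difference 4.77 ± 0.17, adjusted p = 1.25e-41), and PyMT-N was the highest of the 8 lines. The binding-protein genes Igfbp7 and Igfbp6 parted, at 5.0 and -4.54. Rhox2h and Rhox2d, near-identical homeobox genes of the X chromosome that are known from the germ line and placenta, had 0.522 ± 0.486 CPM in PyMT-N and 66.1 ± 8.11 CPM in AT3 and 0.654 ± 0.612 CPM in PyMT-N and 68.7 ± 13.4 CPM in AT3, and reads may be shared among their copies. The remaining large decreases included Nrn1, the neurite-growth protein neuritin, with 0.606, 0 and 0.251 CPM in the PyMT-N libraries, against 28.2, 34.6 and 38 CPM in the AT3 libraries, Dpt, the matrix protein dermatopontin (-6.29), Serpinf1, which encodes the antiangiogenic factor PEDF (-6.14), and Trim35 (-5.89). Trim35 was lowest in PyMT-N of the 8 lines, with 2.14 ± 0.625 CPM in PyMT-N and 135 ± 16.2 CPM in AT3. Among large increases outside the lists were Hspb1, a small heat-shock protein, and Dynap, a membrane protein, at 7.76 and 7.51.

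Large decreases came from a stretch of chromosome 4 where PyMT-N libraries held almost no reads. With a mean of at least 10 CPM in AT3, 10 genes had 0 counts in all 3 PyMT-N libraries, and 0 genes had the reverse. Jun, Mtap, Plaa, Mysm1, Ift74 and Nfia lay among them, with Caap1, Fggy, Tek and Tm2d1. Against a floor of 3 counts over the PyMT-N group, 0.249 CPM, the methionine salvage enzyme gene Mtap was at least 1068-fold lower, Plaa, a ubiquitin-binding protein, at least 475-fold, and Jun at least 305-fold. The histone H2A deubiquitinase gene Mysm1 was at least 253-fold lower and the ciliary transport gene Ift74 at least 125-fold. The bound was 123-fold for Nfia, a transcription factor, 65.4-fold for Caap1, 62.6-fold for Tm2d1, 54.2-fold for Fggy and 44.1-fold for Tek, an endothelial receptor that AT3 held at a mean of 10.97 CPM.

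From Mtap to Tm2d1 (chr4:89137122-98383306, 9.25 Mb in GRCm38) the table lists 35 genes. In AT3, 32 of them had a count, 11068 in sum, and 31 of these 32 had 0 counts in PyMT-N. The 1 gene with counts, Gm12657, had 4 reads and overlaps Plaa. Cdkn2a and Cdkn2b, the inhibitors of cyclin-dependent kinases that lie beside Mtap, had 0 counts in both lines, as had Gm12669. Cdkn2a and Cdkn2b also had 0 counts in 4T1, E0771 and PyMT-M, while 2208L, 67NR and T11 held 69, 70 and 138 counts of Cdkn2a. Without Cdkn2a and Cdkn2b, the other 6 lines had 5960 to 15805 counts in the interval. The nearest listed gene on each side had counts in both lines. On one side, Gm12603, next to Mtap, had 178 counts in PyMT-N and 94 in AT3. Further out, Klhl9 had 1358 counts in PyMT-N and 2414 in AT3, and some predicted genes between them had 0 in both lines. On the other, Inadl had 177 counts in PyMT-N and 296 in AT3, and Usp1 had 2464 in each line. Within the interval 25 consecutive tested genes, from Dmrta1 to Tm2d1, were all more than 2-fold lower. The interferon alpha genes beside the interval, near the background, had from 1 count (Ifna1) to 12 (Ifna11) each in PyMT-N. In AT3 they had from 9 (Ifna14) to 33 (Ifna15). Whether the stretch is missing from the DNA or silent was not tested.

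**Figure D4:**
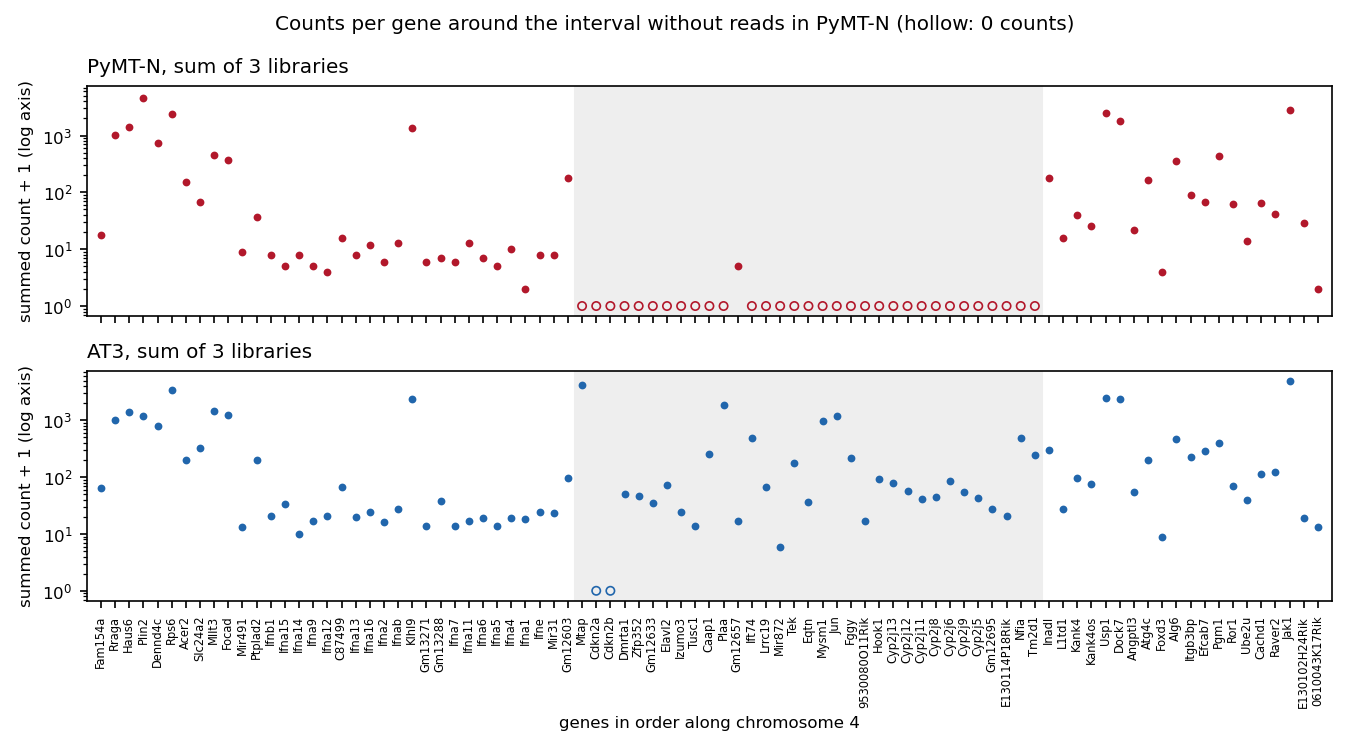
Summed counts + 1 of 3 libraries on a log axis for genes in their order along chromosome 4, PyMT-N above and AT3 below. Hollow points are genes with 0 counts, and grey shading runs from Mtap to Tm2d1. Genes with fewer than 20 counts outside PyMT-N are not plotted. Of the genes plotted in the shaded stretch, PyMT-N has counts only for Gm12657, and AT3 has counts for all but Cdkn2a and Cdkn2b.

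Elsewhere 4 further runs of 5 or more neighbouring tested genes passed the 2-fold test in 1 direction. Besides the Hoxd and Hoxa runs, these were Bid, Mical3, Pex26, Tuba8 and Usp18 on chromosome 6 (chr6:120891930-121270917), all higher with a median of 2.44, and Gpkow, Wdr45, Praf2, Ccdc120 and Tfe3 on the X chromosome (chrX:7697131-7775202), all higher with a median of 1.6. These genes were named because they form the runs. Whole chromosomes differed as well. Among well-expressed genes the median log2 difference was highest on chromosomes 7 (0.80), 6 (0.74) and 5 (0.69), and lowest on chromosomes 19 (0.02), 8 (0.10) and 1 (0.14). On chromosome 19, 48.1% of tested genes were lower and 18.8% higher, against 13.9% lower and 42.1% higher on chromosome 7. Receptor genes, which stand for the background, varied too, with medians of -0.56 over 48 genes on chromosome 7 and -1.09 over 40 genes on chromosome 17. Copy number was not measured.

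Markers of other cell types were set beside the groups they could touch. Of 7 luminal epithelial markers 6 were higher in PyMT-N and 0 lower (1 lower without PyMT-N replicate 1). All 6 tested fibroblast markers were lower in PyMT-N, and their list summed to between 21.8 and 23.8 CPM in PyMT-N and 1225 to 1419 CPM in AT3, mostly Col3a1. Lum, Pdgfra and Fap, stromal markers, were low in both lines, at 0.8797 ± 0.356 CPM in PyMT-N and 4.69 ± 0.735 CPM in AT3, 7.26 ± 1.56 CPM in PyMT-N and 18.4 ± 3.24 CPM in AT3 and 2.55 ± 0.817 CPM in PyMT-N and 5.36 ± 1.87 CPM in AT3. The column name of AT3 in the deposited table carries the suffix Epi, as that of PyMT-N does. The luminal markers in AT3 were uneven. Epcam and Krt19 averaged 2.18 and 1.47 CPM there, within the range of the receptor genes, and Krt8, Krt18 and Cdh1 stood above it, at 14.2, 34.2 and 11.4 CPM. For Krt18 AT3 lay above 67NR, E0771 and PyMT-M, at 2.86, 3.08 and 2.30 CPM, and below T11, at 74.7 CPM. For Krt8 AT3 lay below E0771 and PyMT-M, at 137 and 62.7 CPM, and above 67NR and T11, at 3.02 and 1.72 CPM. Cdh1 averaged from 6.22 to 8.60 CPM in these lines, and Epcam was lowest in AT3 of the 8 lines. The part of fibroblast-like or epithelial cells within a culture in these differences was not tested. Of 5 leukocyte markers tested 1 was higher and 2 lower, of 5 macrophage markers 1 and 2, of 4 neutrophil markers 0 and 2, and of 4 lymphocyte markers 0 and 3. Their summed levels ran from 59.6 to 74.98 CPM in PyMT-N and from 25.1 to 30.6 CPM in AT3 for leukocytes. For macrophages they were 22.4 to 34.1 CPM in PyMT-N against 20.7 to 30.6 CPM in AT3, and for neutrophils 7.69 to 8.77 CPM in PyMT-N against 13.9 to 15.6 CPM in AT3. Lcp1, an actin bundler of leukocytes that carcinomas can express, had 45.8, 68.6 and 61.4 CPM in the PyMT-N libraries, against 6.83, 5.19 and 6.37 CPM in the AT3 libraries. Ptprc, the pan-leukocyte antigen and a long transcript, had 5.29 ± 1.93 CPM in PyMT-N and 13.2 ± 2.63 CPM in AT3. Per kb of exon these are 0.289 and 0.723 CPM, within the receptor background, where 95% of genes lay below 0.572 and 1.04 CPM per kb. The leukocyte genes Laptm5, Emr1, Lyz2, Ngp, Cxcr2, Cd3e and Cd3g were called lower at no more than 5.17 CPM in AT3, with log2 differences between -1.81 and -0.68, while the receptor genes had a median of -0.96. Of these, Laptm5, Emr1, Lyz2, Ngp and Cd3e lost their call without single libraries of either line, as Fap did, and Adipoq lost its call without PyMT-N replicate 3. Mrc1, a macrophage receptor, averaged 13.01 ± 1.598 CPM in PyMT-N and 7.19 ± 3.29 CPM in AT3 and no longer passed under factors from well-expressed genes. Of 6 endothelial markers 3 were lower, of 5 adipocyte markers 2, and of 6 myoepithelial markers 3, with 2 higher. The lower leukocyte markers numbered 1 without PyMT-N replicate 2 or 3 or AT3 replicate 3, and the lower neutrophil markers 1 without any PyMT-N replicate or AT3 replicate 1 or 2. The lower macrophage markers numbered 0 without PyMT-N replicate 2 or AT3 replicate 1, and 1 without PyMT-N replicate 1 or AT3 replicate 3. Without PyMT-N replicate 3 the lower adipocyte markers numbered 1, and without PyMT-N replicate 2 there was 1 higher endothelial marker. The endothelial markers Eng and Pecam1 differed by -3.42 and -1.51, the adipocyte markers Adipoq and Lep by -1.63 and -1.01, and the myoepithelial genes Acta2 and Myh11 by -1.27 and -0.91.

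Among the 28 pairs that the 8 lines form, PyMT-N and AT3 were the second most different by genes called (11210) and the fourth by genes past 2-fold (2367). Set against the range of the other 6 line means, the 1618 genes more than 2-fold higher in PyMT-N divided into 782 where PyMT-N alone lay outside that range, 185 where AT3 alone did, 314 where both did and 337 where neither did. Of the 749 lower genes, PyMT-N alone lay outside for 338, AT3 alone for 106, both for 171 and neither for 134. For Isg15 the PyMT-N mean of 47.2 CPM lay above all others, the nearest being 31.8 CPM in T11, whereas for Epcam 2208L and 4T1 were also high, at 245 and 179 CPM. Fn1 and Thbs1 were higher in 2208L than in PyMT-N, with 5031 and 2970 CPM. Col3a1 was present in T11, PyMT-M and E0771, at 281, 286 and 137 CPM, and highest in AT3. The line next to AT3 had 52.4 CPM of Itgb7 and 6.46 CPM of Dcn, and the line next to PyMT-N had 7.14 CPM of Il1a, 8.49 CPM of Serpinb2 and 74.9 CPM of Tnc.

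**Figure D5:**
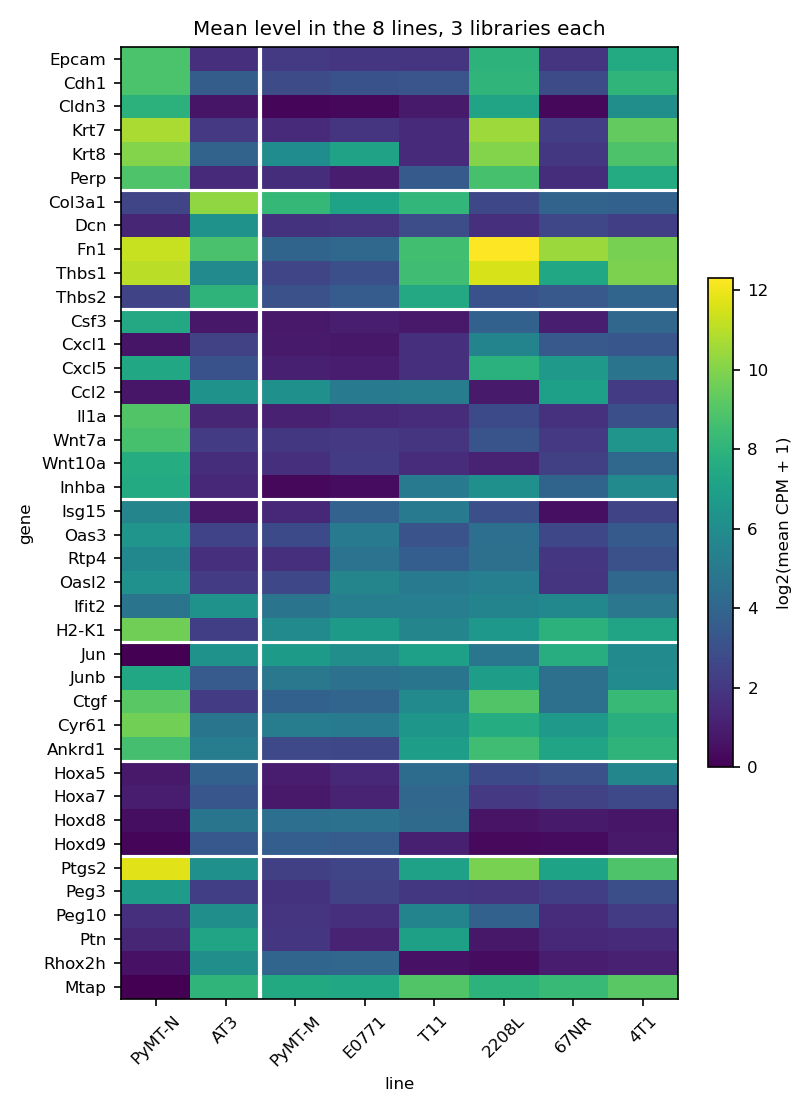
Mean level in the 8 lines as log2(mean CPM + 1), 3 libraries each, for 40 genes in 7 groups divided by white lines. PyMT-N and AT3 are the first columns, set off by a vertical line. Epcam, Cdh1, Cldn3 and Krt7 are high in PyMT-N, 2208L and 4T1 and low in the other 5 lines, and Mtap and Jun are absent from PyMT-N alone.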

How the data were processed

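The authors deposited 1 table of raw counts per gene symbol, made, per the submitters' processing notes, with bcl2fastq 2.17, STAR 2.4.2a and the mm10 genome. The counting program, annotation and strand are not given in the sources used here. Columns were assigned by name. PyMTE was assigned to PyMT-N by elimination, since each other name fitted a different line. The 24 columns of sorted cells were not used.

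The 24 libraries of the 8 lines were fitted together with edgeR 4.0.16 in R 4.3.3 (quasi-likelihood F test, TMM factors, filterByExpr with a minimum count of 10 and total of 15, Benjamini-Hochberg adjustment over all genes tested). Calls have an adjusted p below 0.05. More than 2-fold was tested with glmTreat against a log2 difference of 1. The SE is the log2 difference divided by the square root of its F. DESeq2 1.42.0, RLE factors, factors from well-expressed genes, no filter, fewer libraries and a replicate block were alternatives.

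Symbols were matched to GENCODE M21 (GRCm38, the same build as mm10), 22750 by symbol, 533 through Entrez identifiers and 437 by synonym, and 334 were not matched. Promoters are from RefSeq on GRCm38.p6.

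Genes were named by a rule: the 15 largest well-expressed, non-overlapping differences in each direction, up to 5 members of each list, genes fixed by name, and genes silent in 1 line. Others, named to account for small counts, for neighbours or for a role, were chosen after their values were seen. Not all genes under this rule are reported here. The comparison and its 40 gene lists were chosen with earlier results of these data known.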

Additional observations from a re-analysis of the deposited data

How the results depend on the processing

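Of the counts of called genes, 100 of 108 recomputed values stayed within 1.5 times the main count. With factors from well-expressed genes, 3802 genes were higher and 9022 lower, 1845 of the lower by more than 2-fold; among well-expressed genes 3123 were higher and 2744 lower, 397 by more than 2-fold. DESeq2 gave 377 genes lower by more than 2-fold. At a minimum of 20 CPM in AT3, 6 genes were silent in PyMT-N. Leaving out 1 library gave 5454 to 6147 higher and 4360 to 5259 lower genes. Of the 206 named genes, Myc turned, to a log2 difference of -0.21 with factors from well-expressed genes (adjusted p = 0.00605), and passed without AT3 replicate 3. The calls of 11 genes were lost under at least 1 alternative, all with a mean below 16 CPM over the 6 libraries. Replicate numbers do not pair the libraries: the correlations of same-numbered libraries were 0.109, 0.0159 and 0.00801, and a replicate block gave 5867 higher genes. Of 1040 list counts, 63 moved by over 1.5 times, 19 of them with factors from well-expressed genes. DESeq2 and the pair fitted alone each left 1 lower leukocyte, macrophage and neutrophil marker. Those factors move the median difference by -0.37, and the cause of the other changes was not tested. Depth limits genes near the receptor background, where AT3 libraries held more reads than PyMT-N libraries. Spread between AT3 libraries, at a chi-square per degree of freedom of 4.89 to 16.4, exceeded that between PyMT-N libraries, at 1.41 to 3.10. This was computed on raw counts without TMM factors and with Rn45s included, which took 5.23% to 14.9% of AT3 counts. It is therefore not the spread of the tested genes alone.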
